A study of Homo sapiens with 6 samples.

Results

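Genes of DNA excision repair, mismatch repair and end joining were followed in CHL-1 cells, an established melanoma line that carries the EWSR1::CREM fusion gene, after knockdown of CREM. The members were 44 genes chosen by symbol and role: base and nucleotide excision repair, mismatch repair, end joining and 1 gene of direct reversal, MGMT. All 44 had a row among the 21625 genes of the tables, and 43 passed the minimum of a mean of 1 RPKM (reads scaled to transcript length and library size) that was set for testing. Polyadenylated RNA was sequenced from 3 libraries of cells given control siRNA and 3 libraries of cells given CREM siRNA, in both groups at 50 nM for 48 h. Both groups thus shared the line, the genotype that the labels call WT, the transfection reagent and the harvest time, and untransfected cells were not analysed here. The CREM siRNA was a pool directed at the DNA-binding part of CREM, so that wild-type CREM and the fusion were silenced together. CHL-1 is a single line. The study speaks of triplicate experiments and the tables number the libraries of each group as experiments, without stating that each was a culture of its own, so the spread on which p-values rest may be technical in part.

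In base excision repair a DNA glycosylase removes a damaged or misplaced base, an endonuclease opens the strand, and a polymerase and a ligase close the gap with the help of XRCC1 and of poly(ADP-ribose) synthesis. Nucleotide excision repair cuts out a stretch of the strand around bulky damage such as that left by ultraviolet light, the main mutagen of skin melanocytes, and mismatch repair corrects the errors of DNA copying. End joining seals double-strand breaks without a template, and works outside S phase as well as within it.

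CREM, the gene targeted, was measured at 43.4, 46.4 and 46.5 RPKM in the control siRNA libraries and at 2.40, 2.74 and 2.52 RPKM in the CREM siRNA libraries. It fell by 3.71 on the log2 scale (adjusted p = 3.43e-12, limma), which fits the labels. Libraries held 17221794 to 29793837 reads. The coefficient of variation of the repair genes had a median of 5.41% with control siRNA and 5.07% with CREM siRNA. This does not show whether a single library stood apart. Over all genes with enough reads, control siRNA replicate 3 differed from replicates 1 and 2 by a chi-square per degree of freedom of 8.18 and 6.75. Control replicates 1 and 2 differed by 2.76, and pairs of CREM siRNA libraries by 5.46 to 6.99. The fewest reads of any tested member in any library were 24. Of 11 melanocyte and melanoma markers 8 were tested, with 6 higher, 1 lower (CSPG4, -0.44) and 1 not passed (limma), and their summed level went from 541.7 to 602.8 RPKM up to 1208 to 1215 RPKM. Among them the melanocyte factor SOX10 went from 294 to 316 RPKM up to 471 to 498 RPKM and the pigment enzyme DCT from 23.1 to 25.4 RPKM up to 219.8 to 251 RPKM. The pigment genes TYR and MLANA had no read in replicates 1 and 2 of either group, and in replicate 3 had 2 and 14 reads with control siRNA and 17 and 31 reads with CREM siRNA. PMEL, a pigment granule gene, was likewise highest in replicate 3 of both groups, at 0.636, 0.610 and 1.94 RPKM against 0.372, 0.814 and 8.35 RPKM. Of 7 keratinocyte and epithelial markers 2 were tested, KRT18 (-0.58, lower) and KRT10 (0.04, not passed), and the summed level was 9.903 to 10.51 RPKM against 9.019 to 9.879 RPKM. None of 6 fibroblast markers (summed level 1.012 to 1.677 RPKM against 1.313 to 1.471 RPKM) and none of 5 leukocyte markers (1.915 to 2.245 RPKM against 0.8275 to 1.291 RPKM) reached the level for testing, although PTPRC of leukocytes was at 1.22 to 1.38 RPKM with control siRNA and at 0.0975 to 0.146 RPKM with CREM siRNA. KRT5, COL1A2 and CD3E were at 0 in all 6 libraries. All 10 proliferation markers tested were lower with CREM siRNA, none of them at 0, and their summed level went from 596.1 to 636 RPKM down to 59 to 65.09 RPKM. The part of these marker lists in the repair gene results was not tested. Without replicate 3 of both groups, a choice made after the data were seen, 17 members were lower and 17 higher (limma). The share of all genes called in that fit was not computed.

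Of the 43 repair genes tested, 18 were lower and 19 were higher with CREM siRNA at an adjusted p under 0.05 (limma, Benjamini-Hochberg over 12407 genes), and 6 did not pass. The change was so broad in these cells that 73.4% of all genes tested were called, 36.7% lower and 36.6% higher, so that a call alone sets a repair gene little apart. Members were called at a share of 86% (41.9% lower and 44.2% higher). Their median log2 fold change was 0.04, against 0.00 over all genes tested. The 3 values of one group did not overlap those of the other at 37 of 43 members (86%), and at 76.2% of all genes tested. With a size of at least 0.5 on the log2 scale as a further criterion, 9 members were lower and 2 higher. Those lower made up 20.9% of the members, near the 19.4% of all genes, and those higher 4.65%, where 16.5% of all genes were. In either direction 35.9% of all genes reached this size. The 9 were NEIL3, PARP2, LIG3, MSH6, NTHL1, XRCC6, DDB2, XRCC4 and PRKDC, and the 2 were PARP1 and ERCC6. ERCC6 met the minimum of 1 RPKM only through the CREM siRNA libraries (control mean 0.684, CREM siRNA mean 1.53 RPKM). NEIL3 met it only through the control siRNA libraries (control mean 5.10, CREM siRNA mean 0.518 RPKM). In bulk RNA such as this, fewer cells of a kind and less RNA per cell cannot be told apart. Fold changes are of log2(RPKM + 1), and the added 1 makes changes of low genes smaller.

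On reads, edgeR called 18 members lower and 20 higher (35.6% and 36.7% of all genes). The direction of small changes depended on how libraries were scaled. GAPDH itself was lower with CREM siRNA (802 to 841 RPKM against 686 to 793 RPKM), and scaling by it moved the median of all genes up by 0.169, while scaling by reference genes other than GAPDH moved it up by 0.245. The 19 reference genes were not constant either, with a median log2 fold change of -0.28. Of them 11 were called lower (57.9%, against 36.7% of all genes) and 5 higher (26.3%, against 36.6%, limma). With GAPDH 21 members were higher and 12 lower (46.7% and 24% of all genes), and with reference genes 24 were higher and 12 lower (56.7% and 22.9% of all genes). Members higher by at least 0.5 then numbered 11 with GAPDH and 13 with reference genes. The share of all genes at that size was not computed for these scalings. The 19 called higher were so under all 3 scalings (36.6% of all genes were). Both other scalings moved the median up, so such a call could hardly be lost. Of the 4544 genes called higher, 4543 kept the call. Of the 18 members called lower, 12 were so under all 3 scalings (22.8% of all genes), namely the 9 above with RAD23B, APEX2 and MUTYH. The remaining members, UNG, XRCC1, ERCC2, PMS1, TP53BP1 and MGMT, were lower as deposited and did not pass with either other scaling, where PMS1 (0.03 with reference genes) and TP53BP1 (0.03 and 0.11) turned positive.

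**Figure D1:**
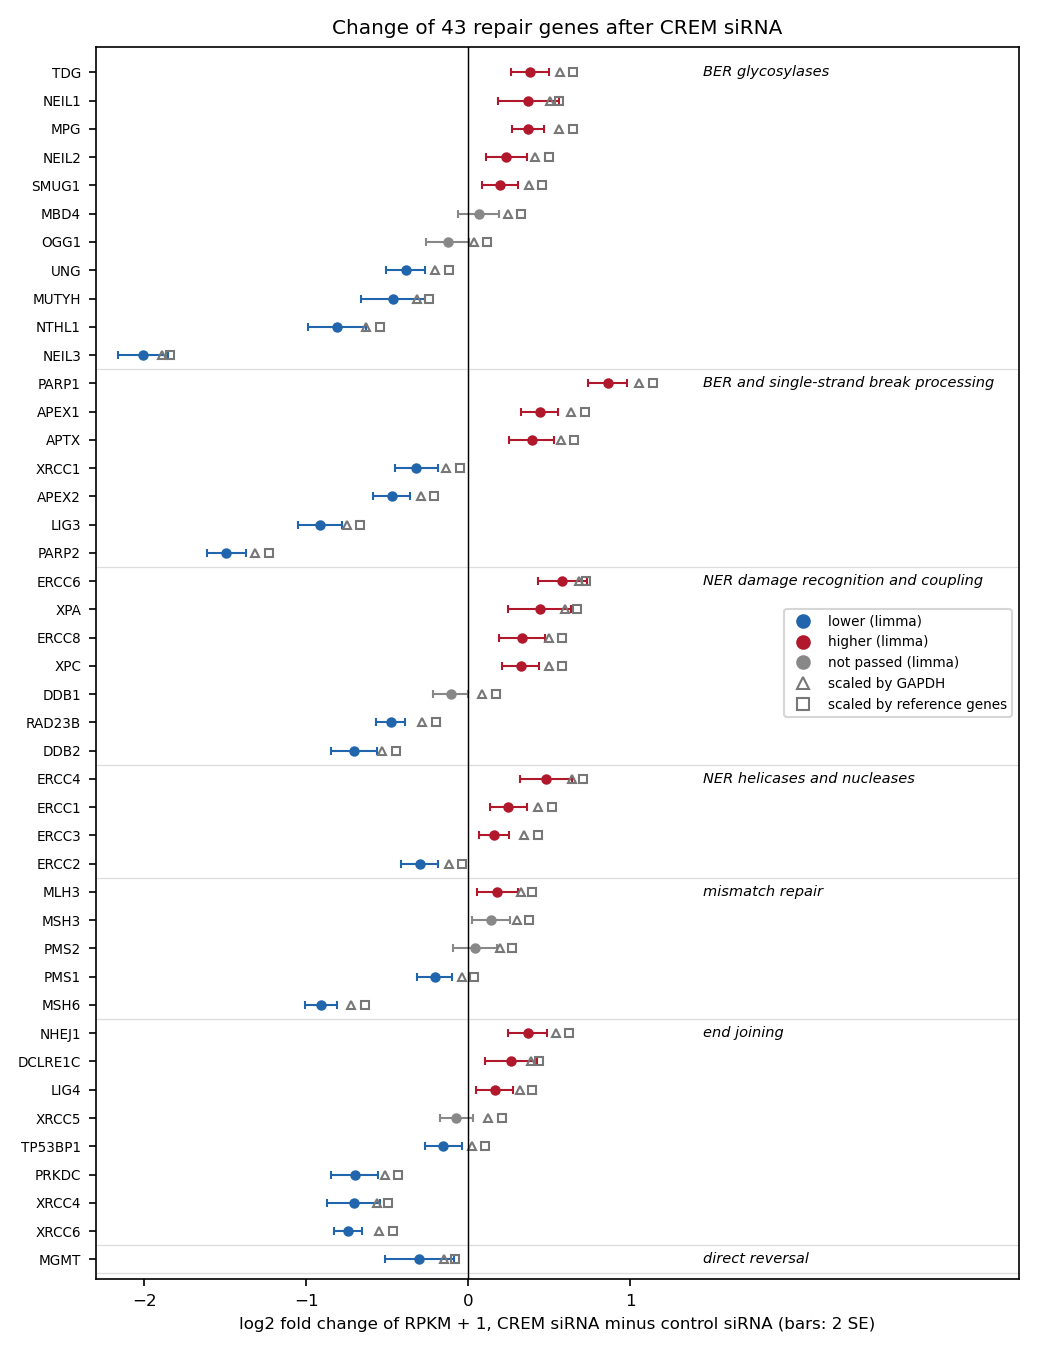
Log2 fold change of RPKM + 1 (CREM siRNA minus control siRNA, horizontal axis) of the 43 repair genes tested, grouped by role. Filled points with bars of 2 standard errors are the deposited scale, coloured by the limma call, and open triangles and squares are the same change after scaling by GAPDH and by reference genes. NEIL3 (-2.01) and PARP2 (-1.49) lay farthest to the left, PARP1 (0.86) farthest to the right, and the open symbols sat to the right of the filled ones throughout.

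**Figure D2:**
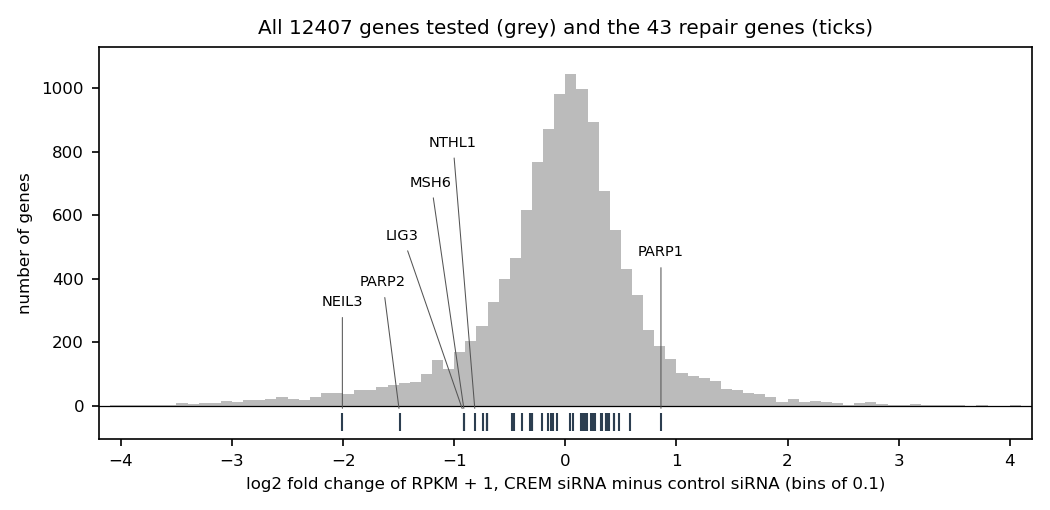
Number of genes (vertical axis) by log2 fold change of RPKM + 1 in bins of 0.1 for all 12407 genes tested (grey bars), with the 43 repair genes as ticks below the axis and 17 genes beyond the axis limits of 4.2 not drawn. Most ticks lay within 0.5 of 0, and those named are the members changed by the most, from NEIL3 at -2.01 to PARP1 at 0.86.

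CREM binds the cAMP response element (CRE), and the stretches ahead of the members' transcription starts were read for its letters. RefSeq windows (GRCh38.p14) from 250 bases before to 50 bases after a start matched 40 members, some with several starts. NEIL2, SMUG1, XRCC5 and PRKDC were not matched. The full CRE, TGACGTCA, was present in the windows of 4 members (10%), APTX, LIG4, PARP2 and PMS2, and in those of 2.25% of all 27305 genes with windows (1.85% of 35116 windows). The letters TGACGTCA read the same on both strands. The 250 bases before the start are shown for these 4 genes because they are the members with a full CRE, from the start with the CRE nearest to it, on the strand of the gene and with the CRE in capitals. They come from chr9:33001629-33001878 (minus strand) for APTX, chr13:108215373-108215622 (minus strand) for LIG4, chr14:20343385-20343634 (plus strand) for PARP2 and chr7:6009107-6009356 (minus strand) for PMS2.
APTX: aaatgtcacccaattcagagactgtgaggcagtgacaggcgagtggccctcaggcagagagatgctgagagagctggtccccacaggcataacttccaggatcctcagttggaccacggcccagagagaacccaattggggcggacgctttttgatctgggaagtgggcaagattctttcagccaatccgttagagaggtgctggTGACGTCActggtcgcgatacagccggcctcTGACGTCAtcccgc
LIG4: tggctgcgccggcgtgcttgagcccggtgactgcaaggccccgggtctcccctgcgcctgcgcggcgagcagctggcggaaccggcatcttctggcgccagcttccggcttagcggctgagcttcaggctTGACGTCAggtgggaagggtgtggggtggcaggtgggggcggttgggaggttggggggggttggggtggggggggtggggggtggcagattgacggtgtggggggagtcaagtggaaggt
PARP2: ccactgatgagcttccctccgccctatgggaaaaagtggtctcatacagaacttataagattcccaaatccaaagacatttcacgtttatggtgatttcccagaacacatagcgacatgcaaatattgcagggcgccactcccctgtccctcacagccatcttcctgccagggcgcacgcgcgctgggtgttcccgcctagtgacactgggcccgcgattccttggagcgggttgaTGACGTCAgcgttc
PMS2: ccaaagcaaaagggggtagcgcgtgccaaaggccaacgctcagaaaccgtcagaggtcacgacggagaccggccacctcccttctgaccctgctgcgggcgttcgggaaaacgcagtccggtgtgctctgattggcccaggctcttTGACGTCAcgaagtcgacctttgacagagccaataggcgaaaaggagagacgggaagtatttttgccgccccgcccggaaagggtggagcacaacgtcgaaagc
The first base of the element lay 14 bases before the start in PARP2, 104 in PMS2 and 120 in LIG4, and the 2 elements of APTX began 45 and 14 bases before it. The 4 genes did not move alike: PARP2 was lower (-1.49), APTX (0.39) and LIG4 (0.16) were higher and PMS2 (0.04) did not pass the test, as given by role below. The half-site TGACG, which the full element contains, was found on either strand at 17 members (42.5%, against 28.4% of all genes), and the box CCAAT at 25 members (62.5%, against 39.7%). Any of the E2F forms TTTCCCGC, TTTGGCGC, TTTCGCGC and TTTGCCGC was found on either strand at 6 members (15%, against 3.99%), which were MSH3, MSH6, PMS2, UNG, XPC and XRCC6. Of these, MSH6, UNG and XRCC6 were lower, XPC was higher and MSH3 and PMS2 did not pass. The 27305 genes were not limited to those expressed in these cells, nor matched to the members in base composition. Windows numbered 62 for the 40 members and 35116 for the 27305 genes, so members had more windows per gene. The shares are thus not like for like, and their difference was not tested. A match of letters is a description and not a bound site.

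Among the 11 DNA glycosylases, which start base excision repair, 5 rose, 4 fell and 2 did not pass (median 0.07). The shares were 45.5% called higher and 36.4% called lower, against 36.6% and 36.7% of all genes. NEIL3 (chr4:177309836-177362943 in GRCh38, as all gene positions given), the glycosylase of single-stranded DNA and of crosslinks at replication forks, had the largest change of all members. It was measured at 4.69, 5.24 and 5.38 RPKM with control siRNA and at 0.577, 0.409 and 0.569 RPKM with CREM siRNA, or 10.2% of the control mean. The groups did not overlap, and every CREM siRNA library was below 1 RPKM, on 24 to 41 reads. The log2 fold change was -2.01 (SE 0.0765, adjusted p = 1.57e-09, limma), and -3.29 in edgeR on reads, which adds no 1. Its relatives NEIL1 and NEIL2, which also remove oxidised bases, went the other way, from 1.76 ± 0.304 to 2.57 ± 0.303 RPKM (0.37) and from 10.9 ± 0.965 to 12.9 ± 0.184 RPKM (0.23; all SD, n = 3). NTHL1 (chr16:2039815-2047866), the glycosylase of oxidised pyrimidines, was at 20.1, 20.3 and 21.7 RPKM with control siRNA and at 9.60, 12.9 and 11.8 RPKM with CREM siRNA. No CREM siRNA library reached the control range (log2 fold change -0.81, SE 0.0896, adjusted p = 1.52e-05, limma). NTHL1 shares 16.54% of its exonic bases with TSC2 on the other strand, which was at a mean of 19.6 RPKM.

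The glycosylases that remove uracil and thymine from mispairs were split. UNG, the main enzyme against uracil in newly copied DNA, went from 18.0 ± 1.17 to 13.6 ± 0.627 RPKM (-0.39), and SMUG1, which removes uracil outside copying, from 9.08 ± 0.157 to 10.6 ± 0.512 RPKM (0.20; SD, n = 3). TDG, which removes thymine and uracil opposite guanine and serves DNA demethylation, rose from 12.1 ± 0.586 to 16.1 ± 0.910 RPKM (0.38, SD, n = 3). MBD4, which works on the same mispairs in methylated DNA, had a log2 fold change of 0.07 and did not pass, but was called higher when scaled by GAPDH (0.24, adjusted p = 0.0233, limma) and by reference genes (0.32, adjusted p = 0.000634, limma). MUTYH, which takes adenine from opposite oxidised guanine, had a log2 fold change of -0.46, and OGG1, which removes the oxidised guanine itself, one of -0.13 that did not pass (adjusted p = 0.102, limma). OGG1 passed without control siRNA replicate 1 (-0.18, adjusted p = 0.0347, limma) and was positive with the other scalings (0.04 and 0.12). MPG, the glycosylase of alkylated purines, rose from 41.4 ± 1.84 to 53.8 ± 1.72 RPKM (0.37, SD, n = 3). It was the glycosylase of highest level in both groups. MPG shares 27.27% of its exonic bases with NPRL3, NEIL1 26.39% with MAN2C1, OGG1 24.96% with CAMK1 and MUTYH 14.12% with TOE1, all on the other strand. In that order these partners were at means of 20.9, 22.3, 14.0 and 4.80 RPKM. The sources used here do not state whether strand was used in counting.

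Of the 7 genes that act after the base is removed or at single-strand breaks, 3 were higher and 4 lower, and none failed the test (median -0.32). Calls were thus 42.9% higher and 57.1% lower, beside 36.6% and 36.7% of all genes. PARP1 (chr1:226360691-226408079) and PARP2 (chr14:20343582-20357905), the enzymes that mark DNA breaks with poly(ADP-ribose), moved apart. PARP1 was at 92.0, 85.8 and 83.2 RPKM with control siRNA and at 171, 151 and 155 RPKM with CREM siRNA, or 183% of the control mean. Each CREM siRNA library lay far above each control library, and PARP1 went from the third to the first place in level among the members (log2 fold change 0.86, SE 0.0594, adjusted p = 2.07e-07, limma). PARP2 was at 19.6, 22.3 and 22.1 RPKM with control siRNA and at 7.13, 6.82 and 6.86 RPKM with CREM siRNA, or 32.5% of the control mean. The CREM siRNA values were tight and all under the control values (log2 fold change -1.49, SE 0.0601, adjusted p = 2.40e-09, limma). Within each library PARP1 was thus 3.75 to 4.69 times PARP2 with control siRNA and 22.2 to 23.9 times with CREM siRNA, a ratio that no scaling of libraries can change.

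LIG3 (chr17:34980494-35009743), the ligase that closes single-strand gaps and works in mitochondria, was at 10.7, 10.7 and 9.57 RPKM with control siRNA and at 5.45, 4.77 and 4.80 RPKM with CREM siRNA. The level in the CREM siRNA libraries was 48.5% of the control mean with no overlap (log2 fold change -0.92, SE 0.0679, adjusted p = 3.70e-07, limma). LIG3 shares 29.06% of its exonic bases with RFFL on the other strand, which was at a mean of 1.23 RPKM. XRCC1, the scaffold that binds LIG3, fell less, by 0.32 on the log2 scale, from 20.7 ± 1.14 to 16.4 ± 1.35 RPKM (SD, n = 3). The endonucleases that open the strand at the missing base were also split. APEX1, the main one, rose by 0.44 from 75.0, 82.8 and 83.5 RPKM to 104, 114 and 109.7 RPKM, and APEX2, a minor relative, fell by 0.47 from 13.8 ± 0.306 to 9.71 ± 0.634 RPKM (SD, n = 3). APTX, which repairs ends left by a failed ligation, rose by 0.39. The summed level of the 7 genes went from 240.6 to 246.6 RPKM up to 318.3 to 326.1 RPKM although most of them fell, since PARP1 and APEX1 have the highest levels.

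**Figure D3:**
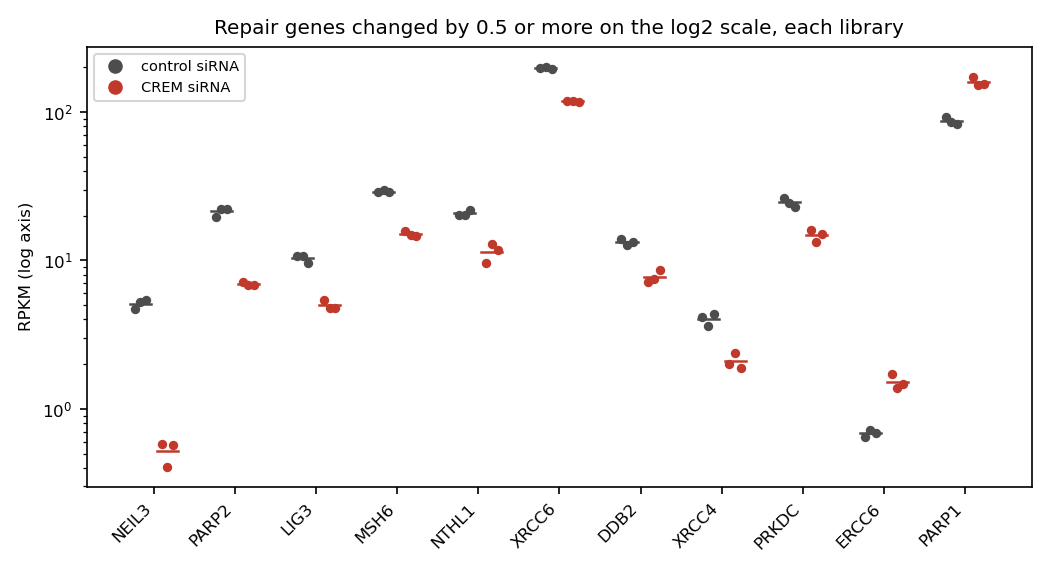
RPKM (vertical log axis) in each library of the 11 repair genes called at a size of at least 0.5 on the log2 scale, ordered by fold change. Each point is a library, grey for control siRNA and red for CREM siRNA, and a line marks the group mean. The genes were picked by their change in these same libraries, so that their groups do not overlap is no separate support. Of all genes tested 76.2% did not overlap. Values run from NEIL3 (4.69 to 5.38 against 0.409 to 0.577 RPKM) to PARP1 (83.2 to 92.0 against 151 to 171 RPKM).

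In nucleotide excision repair, 4 of the 7 recognition and transcription-coupling genes rose, 2 fell and 1 did not pass (median 0.32). That is 57.1% called higher and 28.6% called lower, where 36.6% and 36.7% of all genes were. The difference was not tested on so few genes. ERCC6 (chr10:49455368-49539538), the remodeller that senses an RNA polymerase stalled at damage, was the lowest of the tested members with control siRNA, at 0.642, 0.723 and 0.688 RPKM. It was at 1.72, 1.39 and 1.47 RPKM with CREM siRNA, with no overlap between the groups. Its log2 fold change was 0.58 (SE 0.0746, adjusted p = 3.32e-05, limma) and 1.15 in edgeR on reads, which adds no 1. ERCC8, its partner in coupling repair to transcription, rose from 5.24 ± 0.501 to 6.85 ± 0.290 RPKM (0.33, SD, n = 3). XPA, which checks the opened damage site, rose by 0.44, and XPC, the sensor of distorted DNA across the genome, rose by 0.32. RAD23B, which binds and stabilises XPC, fell by 0.48 from 50.6 ± 1.11 to 36.1 ± 0.707 RPKM (SD, n = 3).

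DDB2 (chr11:47214465-47239240), the subunit that finds ultraviolet lesions and hands them to XPC, was at 14.0, 12.6 and 13.2 RPKM with control siRNA and at 7.15, 7.53 and 8.67 RPKM with CREM siRNA. The CREM siRNA libraries were at 58.5% of the control mean and did not reach the control range (log2 fold change -0.71, SE 0.0711, adjusted p = 4.79e-06, limma). DDB1, its partner and the adaptor of a ubiquitin ligase, was at 70.6 ± 2.70 and 65.4 ± 3.58 RPKM (-0.11, adjusted p = 0.0871, limma; SD, n = 3). DDB1 was called lower without CREM siRNA replicate 1 (-0.15, adjusted p = 0.0257, limma) and with the replicate number as a block (-0.11, adjusted p = 0.0158, limma). It was called higher when scaled by reference genes (0.17, adjusted p = 0.0139, limma) and did not pass when scaled by GAPDH (0.08, adjusted p = 0.398, limma), so its direction is not settled by these data. Of the helicases and nucleases that open and cut the strand, 4 of 5 were tested, with 3 higher and 1 lower (75% and 25%, against 36.6% and 36.7% of all genes). ERCC4 and ERCC1, which form a nuclease, rose by 0.48 and 0.25, and ERCC3, a helicase of the transcription factor TFIIH, by 0.16. ERCC2, the other TFIIH helicase, fell by 0.30 from 13.2 ± 0.552 to 10.6 ± 0.481 RPKM (SD, n = 3). ERCC5, the nuclease that makes the other cut, was at 0.134 to 0.320 RPKM with control siRNA and at 0.170 to 0.334 RPKM with CREM siRNA and was not tested. ERCC5 shares 63.25% of its exonic bases on the same strand with the read-through gene BIVM-ERCC5, so its level is uncertain. ERCC1 shares 28.57% of its exonic bases with CD3EAP, ERCC4 25.7% with an antisense RNA and XPC 23.76% with another, on the other strand.

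The 5 mismatch repair members held 1 higher, 2 lower and 2 not passed (median 0.04). As shares these were 20% higher and 40% lower, against 36.6% and 36.7% of all genes. MSH6 (chr2:47695530-47810101), which with its MutS partner reads single mispairs, was at 28.7, 29.6 and 28.7 RPKM with control siRNA and at 15.7, 14.7 and 14.5 RPKM with CREM siRNA. Both groups were tight, with the CREM siRNA libraries at 51.7% of the control mean (log2 fold change -0.91, SE 0.0493, adjusted p = 2.82e-08, limma). MSH6 shares 16.24% of its exonic bases with FBXO11 on the other strand, which was at a mean of 36.6 RPKM. MSH3, which takes the place of MSH6 for larger loops, was at 4.26, 4.55 and 4.72 RPKM against 5.17, 5.07 and 4.99 RPKM. These values did not overlap, yet MSH3 fell just short of the threshold (0.14, adjusted p = 0.0509, limma), and passed in edgeR (adjusted p = 0.0351) and without control siRNA replicate 3 (0.17, adjusted p = 0.0390, limma). MSH3 was also called higher when scaled by GAPDH, the median ratio and reference genes (0.30, 0.14 and 0.38, adjusted p = 0.00551, 0.0457 and 0.000147, limma), in the CPM table (adjusted p = 0.0410, limma) and with the replicate number as a block (adjusted p = 0.0403, limma), and did not pass in DESeq2 (adjusted p = 0.160). Of the MutL genes, PMS1 fell by 0.21. MLH3 rose by 0.18 (adjusted p = 0.0220, limma), a call lost without control siRNA replicate 2 or 3 or CREM siRNA replicate 1 or 3 (adjusted p = 0.0540 to 0.0711, limma), and without both replicate 3 libraries (adjusted p = 0.119, limma). PMS2, the endonuclease subunit that nicks the new strand, was at 4.34 ± 0.379 and 4.48 ± 0.133 RPKM (0.04, SD, n = 3) and went from -0.02 without control siRNA replicate 3 to 0.09 without control siRNA replicate 1. It was called higher when scaled by reference genes (0.27, adjusted p = 0.00339, limma). PMS2 has copies that can share its reads, of which PMS2CL was at a mean of 14.9 RPKM. The summed level of the 5 genes went from 46.29 to 47.53 RPKM down to 32.36 to 34.2 RPKM, most of it MSH6.

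End joining had 3 genes higher, 4 lower and 1 not passed (median -0.11). By share 37.5% were called higher and 50% lower, against 36.6% and 36.7% of all genes. The largest falls were those of XRCC6, XRCC4 and PRKDC. XRCC6 (chr22:41621119-41664048), the smaller subunit of the Ku ring that first binds a broken end, was the member of highest level with control siRNA, at 198, 201 and 195 RPKM. It was at 118, 118 and 116 RPKM with CREM siRNA, 59.5% of the control mean and with less than 1 RPKM of spread (SD 0.877, n = 3; log2 fold change -0.74, SE 0.0432, adjusted p = 4.88e-08, limma). A copy, XRCC6P5, was at a mean of 6.81 RPKM. XRCC5, the larger Ku subunit, was at 113, 113 and 109.6 RPKM against 112, 105 and 102 RPKM, values that overlap and did not pass (-0.07, adjusted p = 0.214, limma), but was called higher when scaled by reference genes (0.21, adjusted p = 0.00276, limma) and did not pass when scaled by GAPDH (0.12, adjusted p = 0.201, limma). PRKDC, the kinase that Ku recruits, was at 26.4, 24.5 and 22.9 RPKM with control siRNA and at 16.0, 13.3 and 15.0 RPKM with CREM siRNA. The groups stood apart, with the CREM siRNA libraries at 60% of the control mean (log2 fold change -0.70, SE 0.0723, adjusted p = 5.85e-06, limma).

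XRCC4 (chr5:83077498-83353787), the partner that holds the ligase LIG4 at the break, was at 4.16, 3.62 and 4.35 RPKM with control siRNA and at 2.01, 2.37 and 1.89 RPKM with CREM siRNA. Every CREM siRNA library was below every control library, at 51.8% of the control mean (log2 fold change -0.71, SE 0.0819, adjusted p = 1.52e-05, limma). LIG4 itself was slightly higher, 4.11 ± 0.153 against 4.72 ± 0.0891 RPKM (0.16, adjusted p = 0.0259, limma; SD, n = 3). That call was lost without control siRNA replicate 1 or CREM siRNA replicate 2 or 3 (adjusted p = 0.0528 to 0.0882, limma) and in DESeq2 (adjusted p = 0.0618). NHEJ1, which bridges the ends together with XRCC4, rose by 0.37, and shares 65.42% of its exonic bases on the same strand with a gene listed as AC068946.1. DCLRE1C, the nuclease that trims ends, rose by 0.26, a call lost without CREM siRNA replicate 2 (0.22, adjusted p = 0.0538, limma). TP53BP1, which shields ends from being cut back, had a log2 fold change of -0.15 (adjusted p = 0.0311, limma), lost without control siRNA replicate 1 or 2 or CREM siRNA replicate 2 or 3 (adjusted p = 0.0643 to 0.103, limma). TP53BP1 shares 28.73% of its exonic bases with TUBGCP4 on the other strand, which was at a mean of 5.21 RPKM. The summed level of the 8 genes went from 354 to 364.8 RPKM down to 259.3 to 274.4 RPKM.

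MGMT, which takes alkyl groups off guanine and is known for resistance to temozolomide and dacarbazine, stood outside these pathways. It was at 3.54, 3.73 and 4.53 RPKM with control siRNA and at 2.51, 2.93 and 3.61 RPKM with CREM siRNA. The groups overlapped, replicate 3 being the highest of both (log2 fold change -0.30, adjusted p = 0.0263, limma). The call was lost without control siRNA replicate 3 or CREM siRNA replicate 1 or 2 (adjusted p = 0.0741 to 0.103, limma).

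Because a ratio of partner genes within a library does not depend on how libraries are scaled, 15 pairs of genes that form a complex or act at the same step were compared. At 13 of the 15 pairs the groups did not overlap (two-sided exact permutation test, p = 0.1 each, the smallest that 3 libraries against 3 allow, and 0.115 adjusted over the 15 pairs). The share over other pairs of genes was not computed, so this count does not set the pairs apart. Of single genes tested, 76.2% did not overlap between the groups. LIG3 and LIG4 each stood in more than 1 pair, so the pairs are not independent. NEIL3 to NEIL2 changed most, from 0.473 ± 0.0577 to 0.0402 ± 0.00759, or 11.9-fold lower, and PARP1 to PARP2 rose from 4.10 ± 0.516 to 22.9 ± 0.927, or 5.61-fold (SD, n = 3 for all ratios). Next came the ligases, with LIG3 to LIG4 going from 2.52 ± 0.221 to 1.06 ± 0.0970, so that the ligases of single-strand and double-strand breaks came to about the same level. XRCC4 to LIG4 went from 0.986 ± 0.110 to 0.443 ± 0.0449 and MSH6 to MSH3 from 6.44 ± 0.340 to 2.95 ± 0.0802. The ratio of the Ku subunits, XRCC5 to XRCC6, rose from 0.565 ± 0.00455 to 0.904 ± 0.0417, genes whose proteins join in equal numbers. In excision repair APEX1 to APEX2 rose from 5.81 ± 0.290 to 11.3 ± 0.520, XRCC1 to LIG3 from 2.01 ± 0.246 to 3.30 ± 0.489, XPC to RAD23B from 0.141 ± 0.00311 to 0.255 ± 0.00940 and ERCC6 to ERCC8 from 0.131 ± 0.00699 to 0.223 ± 0.0348. DDB2 to DDB1 (0.189 to 0.120), UNG to SMUG1 (1.99 to 1.28) and ERCC2 to ERCC3 (0.576 to 0.409) went down. ERCC1 to ERCC4 (4.27 ± 0.747 against 3.37 ± 0.396) and PMS2 to MLH3 (1.49 ± 0.0989 against 1.31 ± 0.0921) overlapped between groups (p = 0.2, exact). RNA ratios say nothing of how much of each protein is present.

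**Figure D4:**
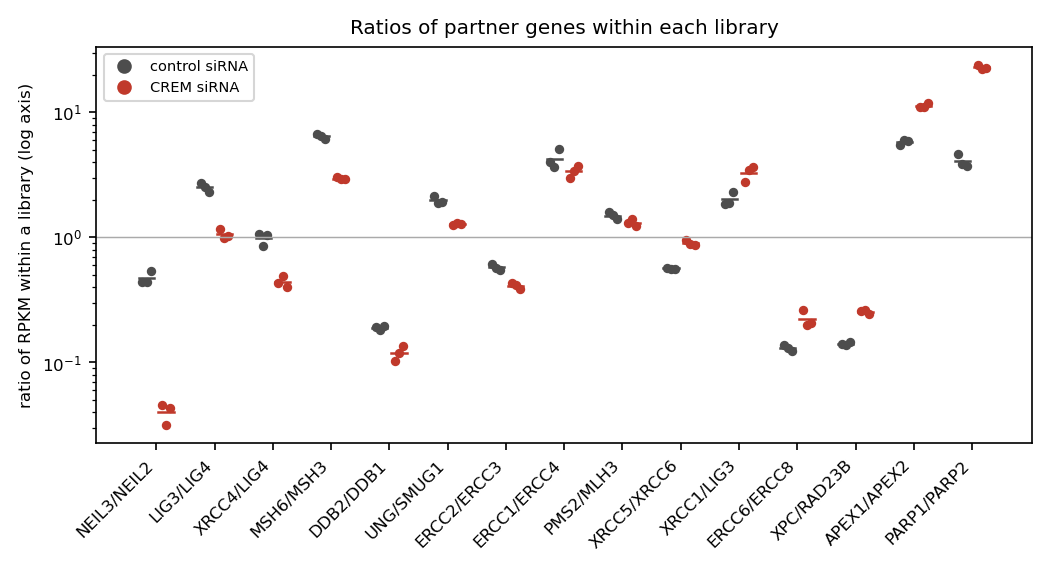
Ratio of RPKM of the 15 partner pairs within each library (vertical log axis, grey line at 1), ordered by change. Grey points are control siRNA libraries, red points are CREM siRNA libraries, and short lines are group means. The groups part at 13 pairs, most at NEIL3/NEIL2 (0.473 to 0.0402) and PARP1/PARP2 (4.10 to 22.9), and overlap at ERCC1/ERCC4 and PMS2/MLH3. The share over other pairs of genes was not computed.

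The other genes of the same pathways, listed by role, were mostly lower. Of the 50 with a row 47 were tested, and 32 were lower, 7 higher and 8 not passed, with a median log2 fold change of -0.44 (limma). Those lower made up 68.1% of them, against 41.9% of the members and 36.7% of all genes. The number higher was 4 without control siRNA replicate 1. In the mismatch repair list all 9 tested were lower by at least 0.97, with a median of -1.69, among them the exonuclease EXO1 (-2.81) and the sliding clamp PCNA (-3.28). These 9 are mostly the clamp, its loader and the copying polymerase, which DNA replication also uses, and PCNA is one of the 10 proliferation markers given above. In the base excision repair list 5 of 11 were lower and 3 higher, with the replicative ligase LIG1 at -2.37 and the flap nuclease FEN1 at -1.91, while the gap-filling polymerase POLB was at 0.40. This list also held ALKBH2 and ALKBH3, which act by direct reversal, and neither passed (0.06 and -0.10). In nucleotide excision repair 10 of 15 were lower and 2 higher. The ligase scaffold CUL4A, which DDB1 joins, was at -1.90, while its relative CUL4B was at 0.15 and did not pass. TFIIH genes were split, with GTF2H1 (0.82) and GTF2H5 (0.62) higher. Lower were GTF2H2 (-0.36), GTF2H3 (-0.39), GTF2H4 (-0.31), CDK7 (-0.26), CCNH (-0.38) and MNAT1 (-0.53). In end joining 8 of 12 were lower and 2 higher, with the polymerase POLQ of microhomology-mediated joining at -1.96 and MDC1, the adaptor at marked breaks, at -1.84. The share of these genes lower was not tested against the members, and its relation to the fall in proliferation markers was not tested.

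**Figure D5:**
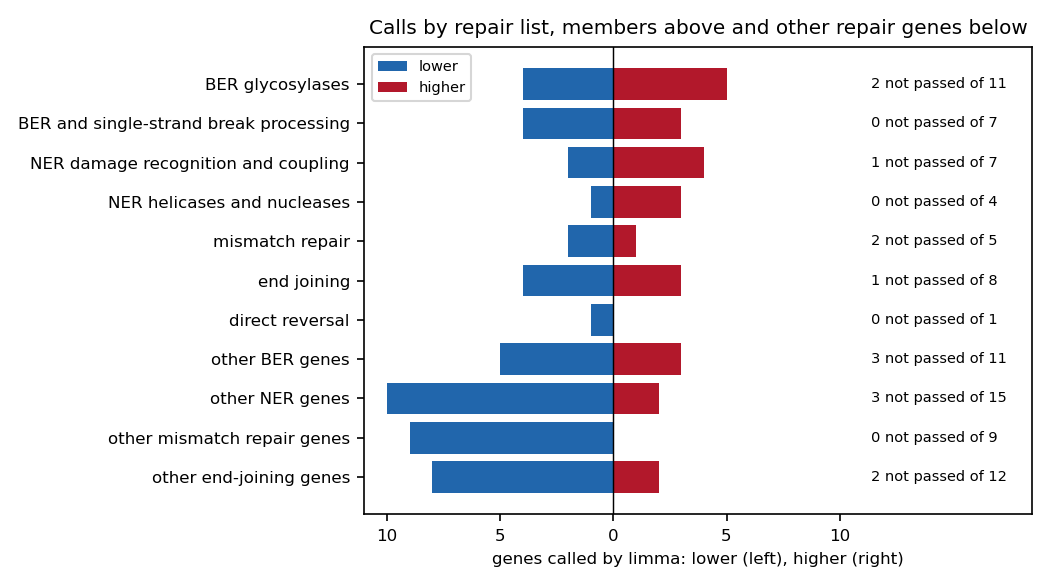
Number of genes called lower (blue, to the left) and higher (red, to the right) by limma in each list by role, the members in the upper rows and the other genes of the same pathways in the lower 4 rows, with the number not passed beside each. Members fell on both sides, 18 lower and 19 higher in all, whereas the other genes were 32 lower and 7 higher.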

How the data were processed

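RNA of CHL-1 cells was sequenced in 3 libraries per group after stranded mRNA library preparation. The authors deposited CPM and RPKM values and describe them as normalized by GAPDH, although GAPDH varies in both tables. The submitters' processing notes name R 3.6.1 and hg38, while the sources used here give no aligner, counter or annotation. No column was left unmapped (0), and 313 of 21625 genes had no symbol. Whole reads were recovered from the deposited CPM (100% of values within 0.001 of a whole read), 17221794 to 29793837 per library, and their number limits the precision of low genes.

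Genes averaging 1 RPKM or more (12407) were tested by limma 3.58.1 (lmFit, eBayes with trend and robust variance, R 4.3.3) on log2(RPKM + 1), unpaired, with Benjamini-Hochberg adjustment at 0.05. Alternatives were pseudocounts of 0.1 and 0.5, no filter or one of 5 RPKM, 3 other scalings, the CPM table, edgeR 4.0.16 and DESeq2 1.42.0 on recovered reads, a replicate block, leaving out each library and, added after seeing the data, both replicate 3 libraries. The fits were tested on simulated data with few genes changed and their signs drawn at random. Their behaviour under a change as broad as the one found here was not checked. Members and lists were chosen with earlier results of these data known. Members called at a size of at least 0.5 have their value in every library, and the others are given by level or fold change, with library values of a few added after they were seen. Gene overlaps follow GENCODE 29 (GRCh38) by Entrez ID, and promoter windows RefSeq.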

Additional observations from a re-analysis of the deposited data

How the results depend on the processing

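Of 761 fold changes of members under the alternatives, 709 kept direction and side of the threshold, 29 lost the call, 13 gained one and 10 changed sign. The sign changed at OGG1 (0.039 with GAPDH, 0.12 with reference genes), DDB1 (0.084, 0.17), XRCC5 (0.12, 0.21), TP53BP1 (0.026, 0.11), PMS1 (0.034 with reference genes) and PMS2 (-0.015 to 0.087 when each library was left out, negative without control siRNA replicate 3). The cause was not tested. Members higher were 12 with a filter of 5 RPKM, where fewer genes are tested. Members lower by at least 0.5 were 5 with reference genes. Members higher by at least 0.5 were 5 with a pseudocount of 0.1, in edgeR and in DESeq2, 1 with a filter of 5 RPKM, 11 with GAPDH and 13 with reference genes. The share of all genes at this size was computed for the main fit alone (19.4% lower and 16.5% higher). It cannot be set beside the counts under the alternatives. Other repair genes higher were 11 with GAPDH and 15 with reference genes. Leaving out each library gave 16 to 18 members lower, 17 to 19 higher, 9 to 10 lower and 2 to 3 higher by at least 0.5, 31 to 32 other genes lower and 4 to 7 higher, 13 to 14 pairs apart, and -3.75 to -3.68 for CREM. Without both replicate 3 libraries, chosen after seeing the data, MLH3, LIG4 and TP53BP1 lost their calls. The share of all genes called was not computed with a filter of 5 RPKM or with libraries left out. Those counts thus do not set the repair genes apart.

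The tables number the libraries of both groups as experiments but do not state that an experiment held 1 library of each group. Deviations of equal numbers correlated at 0.27, -0.04 and 0.14, and library 2 of either group did not correlate best with its namesake. Replicate 3 was the highest of both groups at TYR, MLANA, PMEL and MGMT, so whether the libraries are paired is not settled. The fit without the block was kept as the main one. With the replicate block 19 members were lower, 20 higher, 9 and 2 of them by at least 0.5, with DDB1 and MSH3 gained, and 32 other genes were lower and 8 higher. How many of all genes were called with the block was not computed. Depth limits NEIL3 with CREM siRNA, at 24 to 41 reads.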
